A study of Homo sapiens and Mus musculus with 10 samples.

Results

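Interferon-stimulated genes are the genes that cells switch on when interferon, a secreted warning signal, binds its receptor. Type I interferon acts through the kinases JAK1 and TYK2 on a complex that holds STAT2 and IRF9 and binds the interferon-stimulated response element in promoters. Type II interferon acts through the gamma-activated site. The products sense foreign RNA, block viral entry and translation, degrade RNA, and adjust the signal itself. The set held 39 protein-coding genes given by name, and all 39 were found among the 19970 protein-coding genes of the autosomes and X in GENCODE release 44. They were chosen by name, with earlier results of these data known. For each gene, a promoter peak was a peak that overlapped the 1 kb on either side of any annotated start site, and neighbouring peaks were those within 20 kb of the gene body. A gene is called open in a line below where both libraries of the line had a promoter peak.

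Open chromatin was measured by bulk short-read ATAC-seq, in which the Tn5 transposase cuts accessible DNA, in 8 human libraries from 4 established cell lines with 2 replicates each. GM12878 is a B-lymphoblastoid line made with Epstein-Barr virus, HFF1 fibroblasts from human foreskin, K562 an erythroleukaemia line, and HEK293T a line from embryonic kidney that expresses the SV40 large T antigen. The labels name no interferon, infection or other treatment for any line, so the comparisons are between lines as they were grown. Each line stands for its cell type as 1 line, and 2 mouse libraries of the series were not used here.

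Depth differed between lines and bears on every count below. The lowest local background, which is proportional to depth, was 0.465 and 0.466 reads per window in HEK293T against 1.71 to 2.43 in the other 6 libraries. The weakest peaks held 5 reads in HEK293T and 8 to 10 reads elsewhere. Counts are therefore also given after pileup and background in each library were lowered by the ratio of its lowest local background to that of HEK293T replicate 1, called scaling to the lowest depth below. This matches the background and not the length of the lists, which then held 45570 and 45600 peaks in K562, 52438 and 52137 in HEK293T and 74273 to 79298 in GM12878 and HFF1. Peak names begin with another prefix in GM12878 than in the other 3 lines, where the first replicates share 1 prefix and the second replicates another. What the prefix stands for is not given in the sources used here, so the GM12878 prefix cannot be told apart from the line. Of 5 defining markers per line, 5 had a promoter peak in GM12878 (B cell), 5 in HFF1 (fibroblast), 5 in HEK293T (embryonic kidney) and 3 in K562 (erythroid). The promoters of CD79A, CD79B and MS4A1 were open in GM12878 only, GATA1 and TAL1 in K562 only, COL3A1 in HFF1 only, and PAX2 and LHX1 in HEK293T only, while the erythroid markers KLF1 and HBG1 had no promoter peak in any library. In bulk libraries, a site open in fewer cells and a site less open in every cell cannot be told apart.

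The promoter sequences show what the set shares. RefSeq promoters (GRCh38, 250 bases before to 50 after the start) were matched for 30 of the 39 members, the others being IFIT2, IFITM2, MX2, OAS2, OASL, IRF7, DHX58, USP18 and TRIM22. The core of the response element, GAAANNGAAA on either strand, occurred in 19 of the 30 promoters (63.3%) and in 487 of 15315 promoters of protein-coding genes (3.18%). The gamma-activated site, TTCNNNGAA, occurred in 8 of the 30 (26.7%) and in 6.97% of all promoters. The following 120 bases end at the base before the RefSeq start, read 5′ to 3′ on the gene's strand, with cores in capitals. The first 3 belong to genes open in all 4 lines at that start, IFI44 to a gene open in GM12878 and HFF1 only, and IFITM3 to a gene open at that start in HFF1 only. They lie on GRCh38 at chr1:1013377-1013496 (plus strand), chr1:27672193-27672312 (minus), chr4:88456999-88457118 (plus), chr1:78649669-78649788 (plus) and chr11:320861-320980 (minus).
ISG15: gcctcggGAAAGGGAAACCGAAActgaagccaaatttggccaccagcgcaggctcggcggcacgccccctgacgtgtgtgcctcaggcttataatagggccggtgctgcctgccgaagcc
IFI6: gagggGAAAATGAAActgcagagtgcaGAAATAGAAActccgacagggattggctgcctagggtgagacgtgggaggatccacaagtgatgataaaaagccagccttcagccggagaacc
HERC5: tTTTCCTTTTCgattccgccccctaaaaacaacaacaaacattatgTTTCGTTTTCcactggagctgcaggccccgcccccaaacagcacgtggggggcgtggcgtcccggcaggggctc
IFI44: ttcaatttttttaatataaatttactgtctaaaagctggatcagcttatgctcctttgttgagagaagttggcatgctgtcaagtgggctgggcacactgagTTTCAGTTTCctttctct
IFITM3: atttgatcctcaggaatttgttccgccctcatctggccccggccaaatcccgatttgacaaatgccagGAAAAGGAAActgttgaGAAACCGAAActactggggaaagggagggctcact

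ISG15 held 2 overlapping cores that share a GAAA unit, and IFI6 and HERC5 held 2 each in this window. For further members, 30 bases around the last core before the start are shown, because they compare the same element across genes with different openness. IFIT1, IFIT5 and EPSTI1 were open at that start in all 4 lines, OAS3 and PARP14 in all but HEK293T, BST2 in GM12878 and K562, IFI44L in GM12878 and HFF1, and IFI27 in K562. They lie at chr10:89392503-89392532 (plus), chr10:89414539-89414568 (plus), chr13:42992272-42992301 (minus), chr12:112938452-112938481 (plus), chr3:122680800-122680829 (plus), chr19:17405738-17405767 (minus), chr1:78620365-78620394 (plus) and chr14:94110624-94110653 (plus).
IFIT1: ttagTTTCACTTTCcccTTTCGGTTTCcct
IFIT5: ttacgtttagTTTCGATTTCttaagtttca
EPSTI1: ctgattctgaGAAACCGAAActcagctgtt
OAS3: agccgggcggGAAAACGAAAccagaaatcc
PARP14: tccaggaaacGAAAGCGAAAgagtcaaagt
BST2: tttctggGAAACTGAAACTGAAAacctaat
IFI44L: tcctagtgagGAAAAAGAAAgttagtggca
IFI27: gcagTTTCGGTTTCctgGAAAATGAAAcct

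OAS1 held no such core but had the same GAAA units with 1 base between them, GAAANGAAA, at chr12:112906934-112906963 on the plus strand.
OAS1: tcccttctgagGAAACGAAAccaacagcag
That spacing was searched after the OAS1 promoter had been seen. It occurred in 9 of the 30 member promoters (30%) and in 433 of all 15315 (2.83%). IFI35, OAS1, RSAD2 and XAF1 had it without the other core. Either core occurred in 23 of the 30 (76.7%) against 5.7% of all promoters.

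Nearly every member had an open promoter in GM12878 and HFF1, and fewer had one in HEK293T and K562. A promoter peak was present in both libraries of GM12878 for 38 of 39 members (97.4%), against 71.9% of all protein-coding genes. In HFF1 it was present for 38 (97.4%) against 76.2%. In K562 it was present for 29 (74.4%), near the 70.4% of all genes. In HEK293T it was present for 23 (59%), under the 67.8% of all genes. The single libraries counted 38 and 38 members in GM12878, 39 and 38 in HFF1, 32 and 29 in K562, and 25 and 23 in HEK293T, so replicates of a line differed by at most 3 members. The 4 GM12878 and HFF1 libraries were all above the other 4, while the share of all genes was 69.5% to 77.9% in the 8 libraries.

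A promoter peak in all 8 libraries was present for 22 members (56.4%), near the 59.7% of all genes. No member had one in both libraries of exactly 1 line, against 7.62% of all genes, and none lacked one in every library, against 14.7%. The members were chosen with results of these data known and a two-sided permutation of 2 libraries against 2 cannot go below a p of 0.333, so these counts are described and not tested. After scaling to the lowest depth, the counts were 37 in GM12878 (all genes 68.9%), 36 in HFF1 (70.3%), 23 in K562 (65.2%) and 23 in HEK293T (67.8%). K562 went from 29 members to 23, the number in HEK293T, and both shares (59%) were under those of all genes. Among the 3 lines whose peak names share their prefixes, HFF1 with 36 thus stood above HEK293T and K562 with 23 each.

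Many of these genes have several start sites, and openness at a distant one can count for the gene. Only the main start site, that of the Ensembl canonical transcript, was therefore used as well, a choice made after seeing the data. The counts were then 37 in GM12878 (all genes 66.3%), 37 in HFF1 (71.5%), 26 in K562 (64.7%) and 18 in HEK293T (62.9%). HEK293T lost the most members by this choice and GM12878 and HFF1 lost 1 each.

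**Figure D1:**
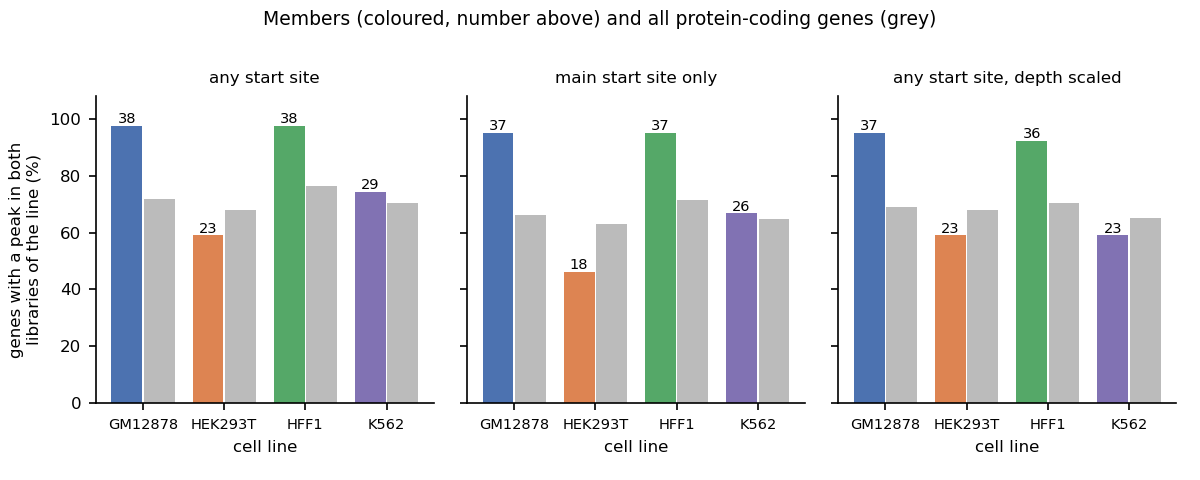
Percentage of genes with a peak in both libraries of each line, for the 39 members (coloured bars, number of members above) and all 19970 protein-coding genes (grey), over any start site, at the main start site, and over any start site after depth scaling. The member bars stand above the grey bars in GM12878 and HFF1 in all 3 panels and below them in HEK293T.

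IFI44, IFI44L, MX2, OAS1, OAS2, OASL and XAF1 had a promoter peak in both libraries of GM12878 and HFF1 and in no library of HEK293T or K562. These 7 make up 17.9% of the members, and 1.33% of all genes had this pattern, which was chosen after the data were seen. After depth scaling the pattern again held 7 members, against 1.1% of all genes, and 5 of the 7 were shared. IFI44L and OASL left it because their weaker peaks were lost, and IFIT2 and TRIM22 entered it because a K562 peak was lost. At the main start site 10 members had the pattern (25.6%), against 1.3% of all genes, the added ones being MX1, RSAD2 and TRIM22.

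**Figure D2:**
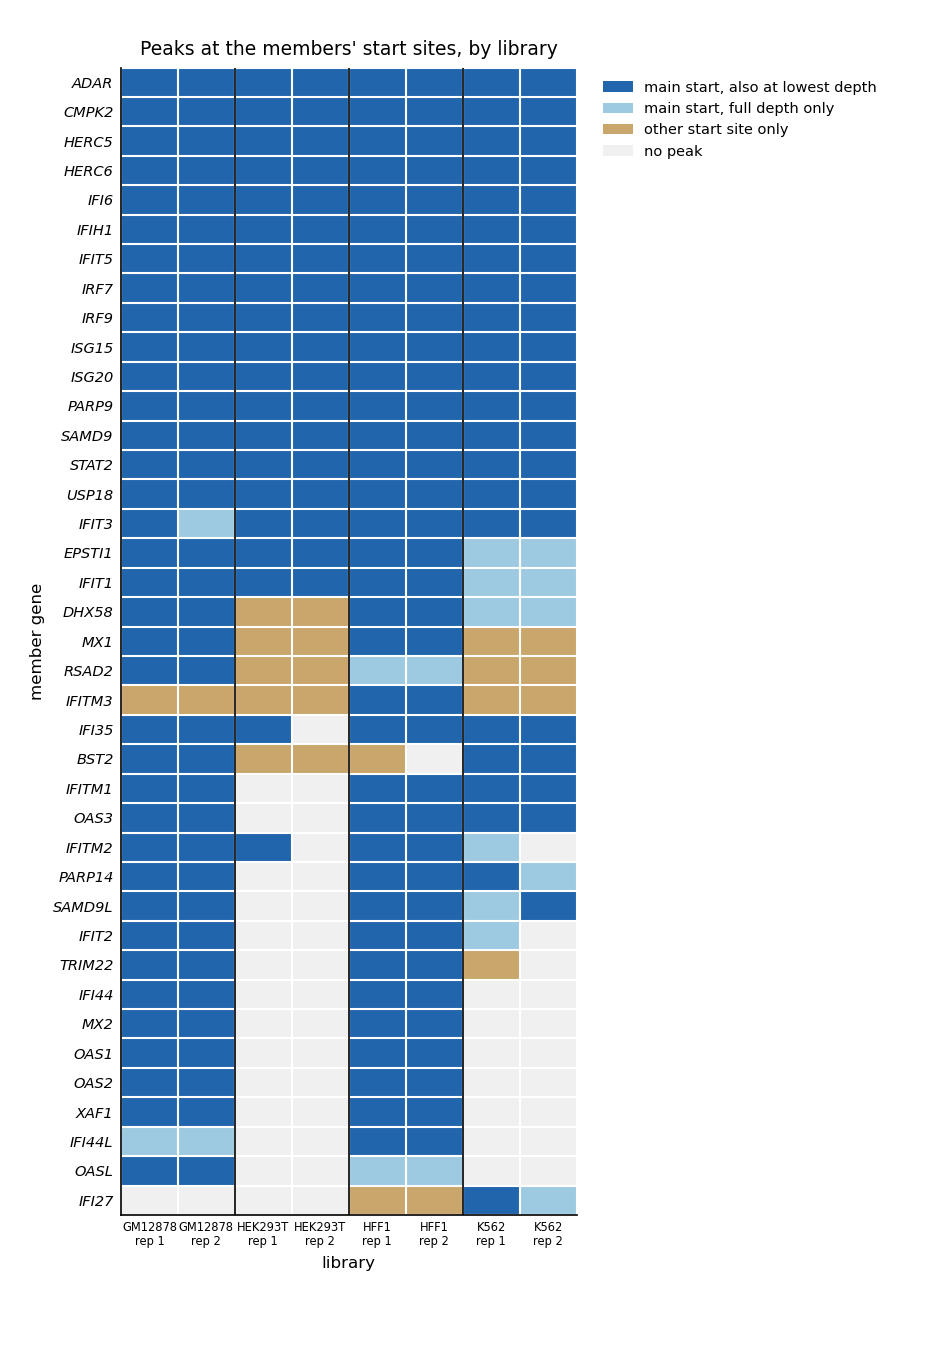
State of each member in each library: a peak at the main start site that is kept at the lowest depth (dark blue), one present at full depth only (light blue), a peak at another start site only (tan) or no peak (grey). The top 15 rows are dark blue in all 8 libraries, and the lower rows are grey in HEK293T and mostly grey in K562.

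The members that sense or act on RNA split into these groups. OAS1, OAS2 and OAS3 sense double-stranded RNA and make a small messenger that activates RNase L, and OASL is a relative without this activity. OAS1 (chr12:112905856-112933219, plus strand) had promoter folds of 10.1 and 10.3 in GM12878 and of 9.21 and 9.82 in HFF1. The fold is the authors' ratio of reads at the summit to local background within 1 library, so it describes a peak within its own list and gives no order between lists. Where a gene had several promoter peaks in a library, the value of the peak with the lowest p-value is given unless the start is named. No OAS1 promoter peak was called in HEK293T or K562. The GM12878 peak held 78 and 79 reads, which scale to 21 and 21 reads at the HEK293T depth. The HFF1 peak held 43 and 39 reads, which scale to 8 and 9. The weakest peaks of the HEK293T lists held 5 reads, and the median peak held 16.

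OAS2 (chr12:112978395-113011723, plus strand) had folds of 10.5 and 9.84 in GM12878 and 10.1 and 10.1 in HFF1, again with none in the other 4 libraries. Its reads scale to 34 and 31 in GM12878 and 12 and 12 in HFF1. OAS3 (chr12:112938051-112976460, plus strand), which lies between them, was open in K562 too, with folds of 7.61 and 6.78 there, 6.46 and 6.59 in GM12878 and 9.59 and 9.83 in HFF1. OASL (chr12:121017763-121039246, minus strand) had folds of 11.3 and 10.2 in GM12878 and 4.04 and 4.4 in HFF1, where 19 and 18 reads scale to 4 and 4. The 4 genes thus had no promoter peak in either HEK293T library, and 1 of the 4 had one in K562.

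The whole OAS cluster was bare in HEK293T. In the 135 kb from 15 kb before to 120 kb after the OAS1 main start, no peak was called in either HEK293T library, against 13 and 11 in GM12878, 10 and 9 in HFF1 and 3 and 2 in K562. Peaks in K562 lay at the OAS3 start, inside OAS2 and, in replicate 1, before OAS1. At IFI44L and IFI44, the 80 kb window held 15 and 13 peaks in GM12878, 9 and 6 in HFF1, 2 and 3 in HEK293T and 1 and 1 in K562. The 1 K562 peak lay before IFI44L and was present at the same place in all 8 libraries. At MX2 and MX1, the counts were 11 and 14 in GM12878, 10 and 10 in HFF1, 4 and 5 in HEK293T and 5 and 3 in K562. These counts are at full depth, where the HEK293T lists were the shortest. The windows were not counted after depth scaling, and no windows around other genes were counted beside them.

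**Figure D3:**
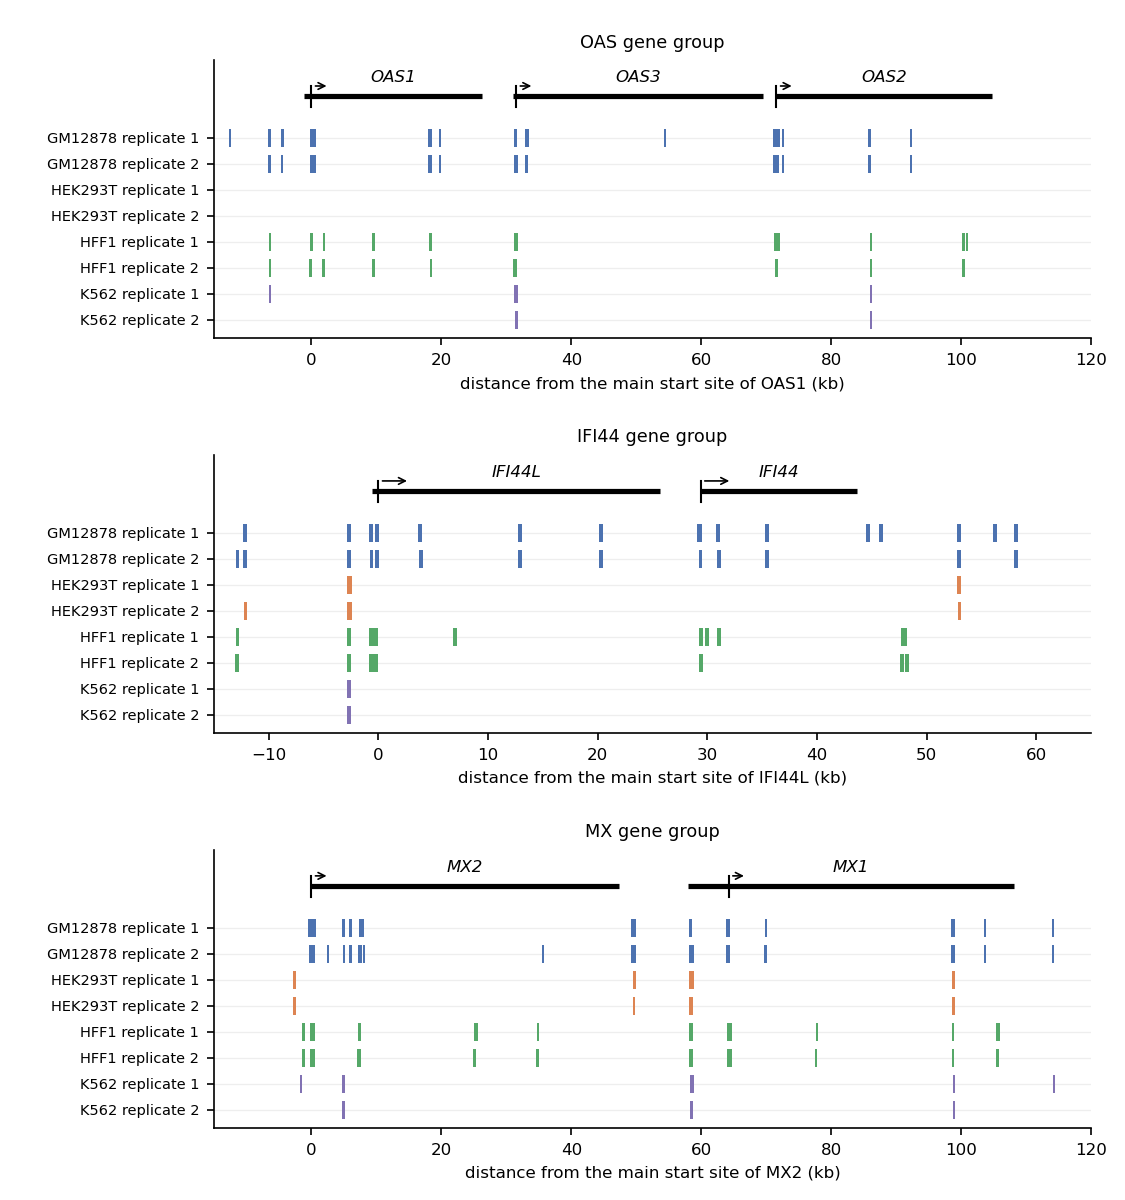
Peaks of each library (coloured blocks, 1 row per library) around the OAS, IFI44 and MX genes, against the distance from the main start site of OAS1, IFI44L or MX2 in kb, with gene bodies as black bars, main starts as ticks and the direction of transcription as arrows. The HEK293T rows of the OAS panel are empty, and the starts of IFI44L, IFI44 and MX2 have blocks in the GM12878 and HFF1 rows only.

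The RNA sensors IFIH1 (MDA5) and DHX58 (LGP2) and the RNA editor ADAR were open in all 8 libraries over any start site. At its main start IFIH1 had folds from 9.96 to 15.4 and ADAR from 4.46 to 10.8. DHX58, at its main start, had no HEK293T peak, with folds of 7.42 and 7.49 in GM12878, 9.53 and 8.11 in HFF1 and 4.52 and 4.41 in K562. The HEK293T peaks of DHX58 with the lowest p-values, at 11.4 and 12.7, lay 4805 bases inside the gene at another annotated start. The RefSeq promoter of ADAR lies at the start 19811 bases further upstream.

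The transcription factors of the response were open everywhere. STAT2, a subunit of the complex that binds the response element, had folds from 10.4 to 15.6. IRF9, its DNA-binding partner, ranged from 8.46 to 15.8. IRF7, which amplifies type I interferon production, ranged from 5.72 to 11.8. All 3 had these peaks at the main start.

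The IFIT genes encode proteins that bind viral RNA or translation factors, and they lie together on chromosome 10. IFIT1, IFIT3 and IFIT5 were open in all 8 libraries at the main start, with lowest folds of 5.06, 4.13 and 6.8 and highest folds of 10.1, 9.38 and 11.4. The K562 peaks of IFIT1 held 19 and 14 reads, and both were lost at the lowest depth. The main-start peak of IFIT3 in GM12878 replicate 2 held 29 reads and was lost there too. IFIT2 (chr10:89283694-89309271, plus strand) had folds at its main start of 10 and 9.92 in GM12878, 9.72 and 9.05 in HFF1, 4.68 in K562 replicate 1 and none in the other 3 libraries. HFF1 had a further peak with its summit 17861 bases upstream, at 11.2 and 10.7, that no other line had. Its summits lay 491 and 487 bases after another annotated start. Neighbouring members of 1 cluster thus differed: IFIT2 had no promoter peak in HEK293T, while IFIT1, IFIT3 and IFIT5 did in both libraries.

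The ISG15 system was open in every library. ISG15 is a ubiquitin-like protein, HERC5 its main ligase, HERC6 a relative of HERC5, and USP18 the protease that removes ISG15 and damps receptor signalling. At their main starts folds ranged from 6.59 to 13.1 for ISG15, 8.24 to 14 for USP18, 6.4 to 12.3 for HERC5 and 7.14 to 15.4 for HERC6. All 4 kept their main-start peaks at the lowest depth in all 8 libraries. USP18 has a close copy elsewhere on its chromosome, so its share of reads is uncertain.

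The membrane proteins differed between start sites. IFITM1, IFITM2 and IFITM3 hinder fusion of viruses with host membranes, and BST2 tethers budding virus particles. IFITM1 (chr11:310041-315272, plus strand) had folds of 4.85 and 4.96 in GM12878, 5.8 and 5.37 in HFF1, 4.41 and 5.06 in K562 and none in HEK293T. IFITM2 (chr11:303655-309397, plus strand) had folds of 5.29 and 5.1 in GM12878 and 9.57 and 9.65 in HFF1. It had peaks of 7.43 in HEK293T replicate 1 and 4.4 in K562 replicate 1 that were absent in the second replicates, so these 2 calls were within the spread of replicates. IFITM3 (chr11:319676-329475, minus strand) had a promoter peak in all 8 libraries over any start site. At its main start only HFF1 was open, at 8.53 and 7.39, and the other 6 libraries had peaks at other starts alone. These 3 genes are near copies of each other, and how reads that map to several copies were treated is not given in the sources used here, so the split of reads among them is uncertain.

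BST2 (chr19:17402939-17405630, minus strand) had folds at its main start of 9.9 and 9.4 in GM12878 and 5.46 and 5.28 in K562 and no peak there in HEK293T or HFF1. A further region, with its summit 2138 bases inside the gene, overlapped the window of another start. Peaks there had 7.16 and 9.63 in HEK293T and 4.45 in HFF1 replicate 1. GM12878 had 3.07 and 3.47 there and K562 3.7 and 3.65. The summits lay 844 and 1045 bases from the nearest annotated start in HEK293T and 787 bases in HFF1 replicate 1. These calls thus come from peaks near the edge of the 1 kb window. BST2 was the 1 member without a peak in both HFF1 libraries. Its promoter peaks also overlapped the windows of MVB12A in 4 libraries.

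MX1 and MX2 encode dynamin-like GTPases that trap viral capsids. MX2 (chr21:41361999-41409393, plus strand) had folds of 6.06 and 5.61 in GM12878 and 7.66 and 7.96 in HFF1 and no peak in HEK293T or K562. MX1 (chr21:41420020-41470071, plus strand) counted as open in all 8 libraries over any start site. At its main start it had 10.1 and 9.33 in GM12878, 7.23 and 7.76 in HFF1 and no peak in the other 4 libraries. The peak common to all lines lay 6025 bases upstream, near the RefSeq start, at 8.7 and 7.56 in GM12878, 11.1 and 8.23 in HEK293T, 9.41 and 9.2 in HFF1 and 5.39 and 4.9 in K562.

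RSAD2 (viperin, which makes a chain-terminating nucleotide) and CMPK2 (a mitochondrial nucleotide kinase) share a promoter peak in all 8 libraries, at folds of 7.1 to 10.8. CMPK2 (chr2:6840570-6866635, minus strand) has its main start there. RSAD2 (chr2:6865557-6898239, plus strand) has its main start 11892 bases after its RefSeq start in that shared peak, and there folds were 9.04 and 8.28 in GM12878, 5.23 and 5.85 in HFF1, and none in HEK293T or K562. Other shared promoter peaks, each in 8 libraries, were those of IFIH1 with GCA, IFIT5 with LIPA, ISG15 with HES4, IRF9 with RNF31 and PARP9 with DTX3L. For these genes the shared peak cannot be assigned to 1 of the pair. The peak that ISG15 shares with HES4 lay at another start, in a region with its summit 13298 bases upstream of the ISG15 main start. ISG15 had a separate peak at its main start.

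SAMD9 and SAMD9L are neighbours on chromosome 7 that restrict poxviruses. SAMD9 was open in all 8 libraries, with folds of 15.5 and 18.4 in GM12878, 8.36 and 6.37 in HEK293T, 9.96 and 7.73 in HFF1 and 10.9 and 10.2 in K562. SAMD9L (chr7:93130056-93148385, minus strand) had folds of 7.55 and 8.65 in GM12878, 6.82 and 7.14 in HFF1, 3.89 and 5.23 in K562 and none in HEK293T. These summits lay 723 to 816 bases inside the gene. A second peak, with its summit 12 bases upstream of the main start (chr7:93148280-93148506), was called in GM12878 at 7.31 and 6.78 and in HFF1 replicate 1 at 4.61.

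IFI44L (chr1:78619902-78646145, plus strand) had folds at its main start of 3.48 and 3.65 in GM12878 and 6.1 and 6.24 in HFF1 and no peak in the other 4 libraries. The GM12878 summits lay at different places in the window in the 2 replicates. HFF1 replicate 1 had a further peak of 9.03 at another annotated start, from 6.809 to 7.201 kb after the main start. IFI44 (chr1:78649796-78664078, plus strand) had 7.54 and 8.85 in GM12878 and 10.3 and 11.1 in HFF1, and none in HEK293T or K562. Both are widely used markers of an interferon response. The reads of IFI44 scale to 20 and 21 in GM12878 and 8 and 8 in HFF1, above the 5 reads of the weakest HEK293T peaks.

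XAF1 (chr17:6755447-6775647, plus strand), a partner of the apoptosis inhibitor XIAP, had folds of 8.25 and 9.04 in GM12878 and 4.96 and 5.41 in HFF1, where the summits lay further upstream, and none elsewhere. IFI27 (chr14:94104836-94116695, plus strand), a mitochondrial protein, was the 1 member with no promoter peak in GM12878. It had none in HEK293T either, and folds of 7.15 and 5.32 at its main start in K562. In HFF1 it had 4.24 and 4.85 at other starts only, and at the lowest depth it was open in no line.

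IFI35 (chr17:43006740-43014456, plus strand) had folds of 16.1 and 15.2 in GM12878, 12 and 13.4 in HFF1, 7.64 and 8.54 in K562 and 6.75 in HEK293T replicate 1 alone. PARP14 (chr3:122680839-122730840, plus strand), an ADP-ribosyltransferase, had 6.27 and 6.04 at its main start in GM12878, 6.17 and 5.7 in HFF1, 4.93 and 4.68 in K562 and none in HEK293T. GM12878 alone had a further peak 10556 bases inside PARP14, at 9.19 and 12.2. TRIM22 (chr11:5689610-5737089, plus strand), a ubiquitin ligase, had 7.29 and 8.41 in GM12878, 5.42 and 4.43 in HFF1, 4.42 in K562 replicate 1 and none in the other 3 libraries. The remaining members were open in all 8 libraries. IFI6 ranged from 7.99 to 16.5, the exonuclease ISG20 from 7.66 to 13.3, PARP9 from 7.53 to 13.4 and EPSTI1 from 5.73 to 11.8. The K562 peaks of EPSTI1 held 20 and 16 reads, and both were lost at the lowest depth.

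The summits of member promoters lay near the start, as they did over all genes. At the main start, the median summit of a library lay 29 to 57 bases upstream, against 55 to 62 for all genes, and 72.2% to 89.2% of members with a peak there lay within 200 bp, against 71.3% to 74.6% of all genes. HEK293T replicate 2 (72.2%) and both HFF1 libraries (75.7% and 73%) were near the share of all genes. Among members with both a peak and a core, the median distance from summit to core was 35.5 to 63.5 bp across libraries. Of the merged regions at promoters near members, the core lay within 100 bases of the summit in 26.7% in GM12878, 29.3% in HEK293T, 26.4% in HFF1 and 30.6% in K562. Near any protein-coding gene these shares were 3.11%, 1.46%, 2.14% and 1.6%. Each merged region had a single summit, that of its peak with the lowest p-value in any library. A region open in several lines thus counted alike in each, so the similar shares of the 4 lines are partly built in. HEK293T had the fewest of these regions near members, 41 against 62 to 90 in the other lines. It also had the fewest near any protein-coding gene, 14500 against 17266 to 21608.

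Member promoters were poor in CpG. Their median ratio of observed to expected CpG was 0.399 over 30 promoters, against 0.768 over all promoters. It was 0.561 for the 16 members open at the main start in all 4 lines, which ranged from 0.25 to 0.945. It was 0.182 for the 6 open there in GM12878 and HFF1 only, which ranged from 0 to 1.06. The highest of those 6 were RSAD2 at 1.06 and MX1 at 0.701. For the other 8 it was 0.314, with a range from 0 to 0.731. Among those 8, SAMD9L was at 0 and BST2 at 0.0962. Both counted as open at the main start in K562 as well. The K562 summits of SAMD9L lay 816 and 805 bases inside the gene, beyond the sequence used for this ratio. The RefSeq starts of 5 members (MX1, RSAD2, ADAR, CMPK2 and PARP9) lie over 250 bp from the main start. Without them the medians were 0.63 over 13 members and 0.0372 over 4 members (IFI44, IFI44L, OAS1 and XAF1). Those 4 ranged from 0 to 0.29 and the 13 from 0.26 to 0.945, so the groups overlapped only narrowly. The core with 1 base between its GAAA units occurred in 5 of the 6, in 1 of the 16 and in 3 of the other 8, a comparison made after the promoters were seen. For MX1 and RSAD2, 2 of those 5, the matched promoter is not the one at the main start.

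**Figure D4:**
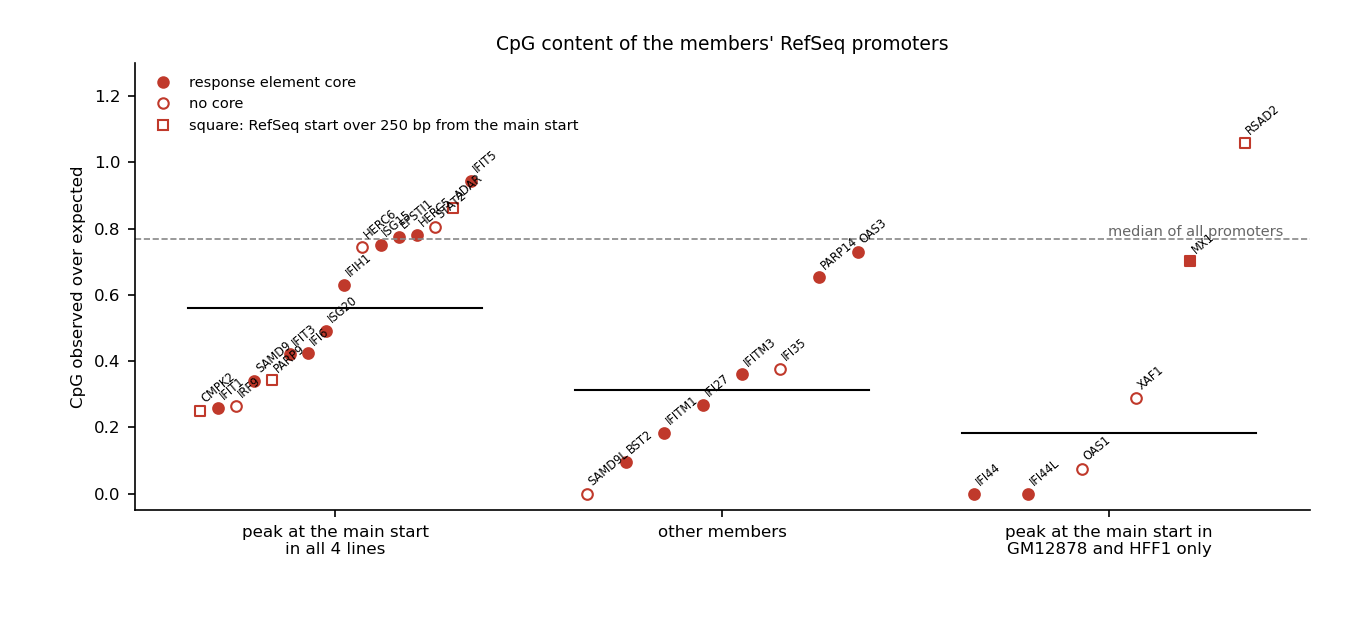
Ratio of observed to expected CpG in the 30 matched RefSeq promoters, by where the member was open at its main start, with filled marks for promoters with the response element core, squares for RefSeq starts over 250 bp from the main start, black lines for group medians and a dashed line for the median of all promoters (0.768). IFI44, IFI44L and OAS1 lie near 0, as does SAMD9L among the other members, and IFIT5 at 0.945.

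Counted around the gene body, the median member had most peaks in GM12878 and fewest in HEK293T. The median number of peaks within 20 kb was 7 and 7 in GM12878, 6 and 6 in HFF1, 5 and 4 in K562 and 2 and 2 in HEK293T. All genes had medians of 5 and 5, 6 and 5, 4 and 4, and 3 and 3. After depth scaling the member medians were 5 and 5, 4 and 4, 3 and 2, and 2 and 2, against 4 and 4, 4 and 4, 3 and 3, and 3 and 3 for all genes. In 18 members (46.2%) every HEK293T and K562 library had fewer peaks than every GM12878 and HFF1 library, against 21.8% of all genes. After depth scaling this held for 11 members (28.2%), against 18.1%, a smaller gap. Neighbouring members such as OAS1 and OAS3 can share these peaks, so the members are not independent. This split of the lines was chosen after the data were seen, and the shares were not tested.

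The number of peaks within 20 kb was tested for a difference between the 4 lines with an exact one-sided permutation test over the 105 ways of pairing 8 libraries, adjusted by Benjamini-Hochberg over all 19970 genes. No member and no other gene (0% of all) had an adjusted p under 0.05. The smallest p that this design allows is 0.00952 and the smallest adjusted p was 0.0742. Before adjustment 24 members (61.5%) had a p under 0.05, against 43.1% of all genes. The smallest p was reached by 5 members (12.8%), near the 10.7% of all genes, so this count is no result about the members. They were IFI44, OAS1, OAS3, RSAD2 and HERC6. OAS1 had 8 and 7 peaks in GM12878, 0 and 0 in HEK293T, 6 and 6 in HFF1 and 2 and 1 in K562. RSAD2 had 8 and 9 peaks in K562, 7 and 6 in GM12878, 4 and 5 in HFF1 and 2 and 2 in HEK293T. HERC6 had 8 and 9 peaks in GM12878 and 2 to 5 in the other 6 libraries.

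**Figure D5:**
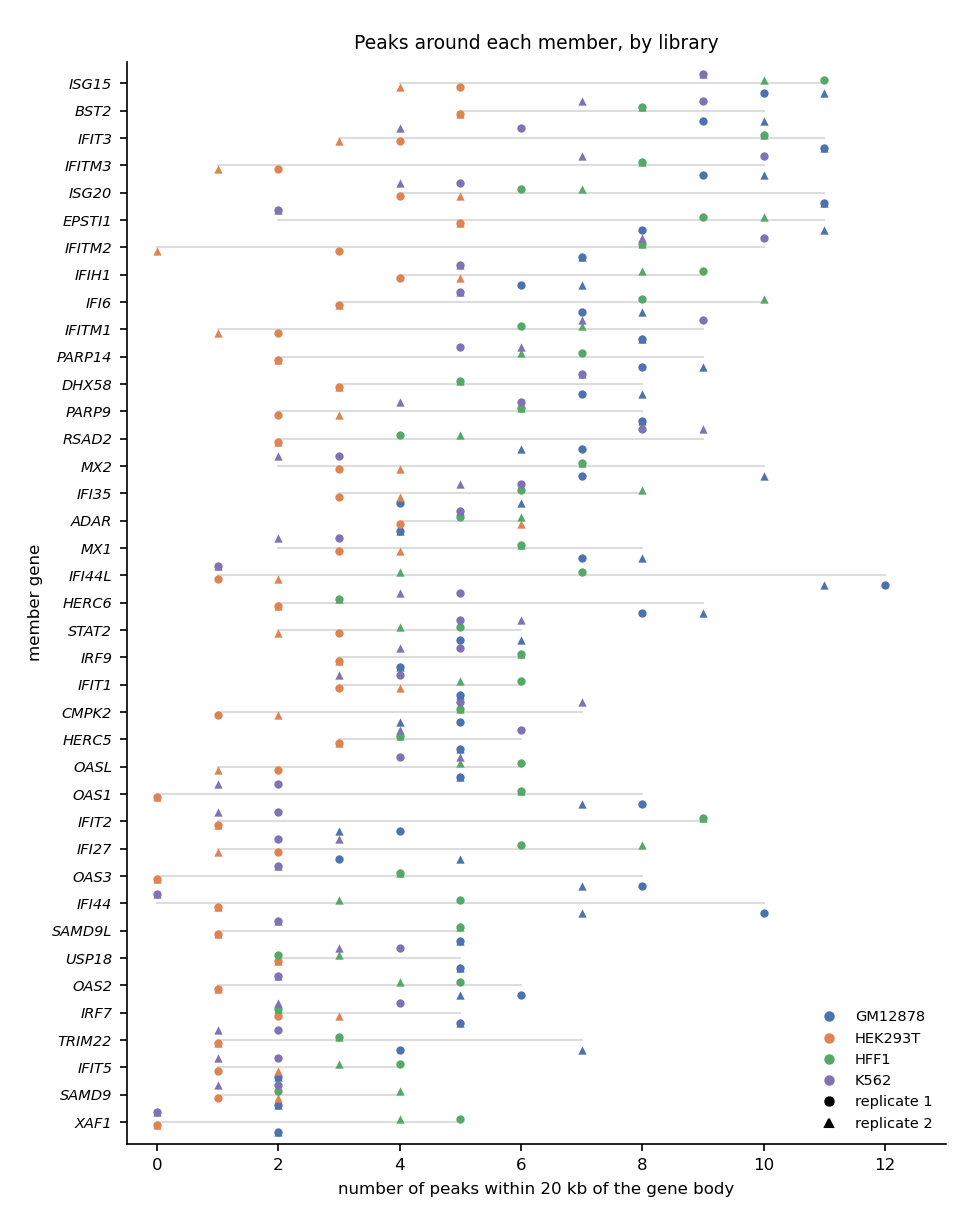
Number of peaks within 20 kb of each member's gene body in each of the 8 libraries, coloured by line with circles for replicate 1 and triangles for replicate 2, and members ordered by their mean. HEK293T points lie at the left for most members, XAF1 has 0 peaks in HEK293T and K562, and IFI44L reaches 12 in GM12878.

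Distal regions near members were weighted towards GM12878. Peaks of the 8 libraries were merged, and 165 regions outside every promoter window were called in both libraries of at least 1 line within 20 kb of a member. GM12878 had 102 of them (61.8%), HFF1 80 (48.5%), K562 46 (27.9%) and HEK293T 23 (13.9%). Near any protein-coding gene the shares were 47.9%, 54.2%, 30.2% and 15.9%. Regions called in GM12878 alone made up 58 (35.2%) near members and 25.7% near any gene, and those in HFF1 alone 38 (23%) and 33.3%. These regions are not independent, since neighbouring members share them, and no test was made.

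The core lay within 100 bases of the summit in 9 of these 165 distal regions (5.45%), against 4.74% near any gene. A region 17394 bases upstream of IFI6 (chr1:27689331-27690311) was open in GM12878 at 7.67 and 10.9 and in HFF1 at 7.91 and 7.85. A region between MX2 and MX1 (chr21:41411162-41412021), 14679 bases upstream of the MX1 main start, was open in GM12878 at 11.1 and 10.8 and in HEK293T at 10.9 and 10.2, and in no HFF1 or K562 library. In HEK293T this region was thus open while the main starts of MX1 and MX2 had no peak. A region 23491 bases after the IFI44 main start (chr1:78673192-78673460) was likewise open in GM12878, at 5.65 and 5.17, and in HEK293T, at 7.24 and 8.36, and in no other library. A region 52629 bases after the OAS2 main start (chr12:113030816-113031276) was open in all 8 libraries, at 4.68 to 11.5. The regions 23724 and 6166 bases upstream of the IFIT2 main start were open in HFF1 only, and regions inside EPSTI1, HERC6 and IFI44 in GM12878 only.

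Of 34 other interferon pathway genes, 30 (88.2%) had a promoter peak in both libraries of GM12878, against 71.9% of all genes. The counts were 25 (73.5%) in HFF1 against 76.2%, 22 (64.7%) in HEK293T against 67.8%, and 20 (58.8%) in K562 against 70.4%. In all 8 libraries 19 (55.9%) had one, against 59.7%. The share was thus above that of all genes in GM12878 only, and in HFF1 it was slightly under it. The kinase genes JAK1, JAK2 and TYK2 were open in all 8 libraries, and so were the receptor genes IFNAR1, IFNAR2, IFNGR1, IFNGR2 and IL10RB. IFNLR1, the receptor chain of lambda interferons, had no K562 peak. The inhibitors SOCS1 and SOCS3 and the factors IRF1, IRF2 and IRF3 were open in all 8. The DNA sensor gene CGAS was open in GM12878 and HFF1 only, its adaptor STING1 in all lines but HEK293T, and the endosomal sensors TLR7 and TLR9 in GM12878 only. Of 8 ligand genes, IFNB1, IFNA2 and IFNG were open in GM12878 alone in both libraries, IFNW1 in GM12878 and HFF1, and IFNA1, IFNE, IFNK and IFNL1 in none. Within 20 kb of IFNB1, IFNA1, IFNA2, IFNW1 and IFNE, which lie together on chromosome 9, K562 had 0 peaks in both libraries. These genes are part of the K562 count above as genes without a promoter peak. Copy number was not tested, so absent DNA and closed chromatin cannot be told apart there.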

How the data were processed

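Of the 10 ATAC-seq libraries of the series, the 8 human ones were used, grouped by the cell line and replicate number in their labels. The submitters' processing notes name cutadapt 3.2, Bowtie2 2.4.2, Picard and MACS2 2.2.7.1 with hg38 for human. Read filters and caller settings are not given in the sources used here. The authors deposited 1 peak list per library, so replicates were not pooled. Per the labels and the list layout, each deposited peak has a fold (a ratio of summit to local background) and, on a −log10 scale, its p-value and q-value, with a score of 10 times the −log10 q. The lowest deposited −log10 q was 2 to 2.05. Folds are set side by side as a description, and none was ranked, averaged or tested across lists. Peak positions were compared with hg38, and 0 regions passed a chromosome end. Coordinates are on hg38 and counted from 1.

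The 39 members, the pathway genes and the markers were chosen with earlier results of these data known. Every member is named with its pattern; folds in all libraries are given for members open in 1 to 3 lines, and ranges for those open in all 8. Other genes come from these lists or share a promoter peak with a member. Some listed pathway genes are not reported here by name. For each peak, a whole-number pileup and background were recovered that give its fold and Poisson −log10 p within 0.001; this worked for 100% of peaks. Depth scaling lowered pileup and background to the level of HEK293T replicate 1 and kept peaks with −log10 p of at least 4.18. Replicate pileups varied by 0.609 to 0.67 of the counting variance, so the lists cannot decide whether replicates are separate cultures; they were counted as 2, and p-values measure only the spread between them. Pileups are PCR reads without molecular identifiers, and no counting interval was computed.

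Peaks within 20 kb were compared with an exact one-sided permutation test of the share of variance between lines over 105 pairings, with Benjamini-Hochberg adjustment. The recovery and the test were checked on simulated data. Python 3.11.15, numpy 2.4.6, pandas 2.3.3, scipy 1.17.1 and matplotlib 3.10.9 were used. Alternatives changed the window, start sites, overlap, threshold, list length, depth, distance, pairing and libraries.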

Additional observations from a re-analysis of the deposited data

How the results depend on the processing

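Of 158 recomputed values of 10 counts, 149 stayed within 1.5 times the reported count. The number of members open in exactly 1 line, reported as 0, was 1 with a 500 bp window, 1 with starts of protein-coding transcripts only, 4 with the top 50000 peaks of each library, 2 with depth scaling, and, chosen after seeing the data, 2 at the main start site only and 4 at the main start site with depth scaling. The number without a peak in any library, reported as 0, was 1 with the top 50000 peaks. In the test of peaks within 20 kb, the number of members with an unadjusted exact p under 0.05 fell from 24 to 8 with the top 50000 peaks and to 8 with the replicate block, whose 24 pairings allow no p under 0.0417. The adjusted count was 0 under all 15 alternatives, the replicate block included, so none of them bears on its stability. Same-numbered replicates of different lines shared no deviation (r from -0.0053 to 0.00851 across 19970 genes, which are not independent), so no block was used in the reported test. In HEK293T, HFF1 and K562 the prefix of the peak names follows the replicate number. Leaving out 1 library in turn gave 38 to 38 members for GM12878, 23 to 25 for HEK293T, 38 to 39 for HFF1, 29 to 32 for K562, 22 to 23 for all 8 libraries, 7 to 9 for GM12878 and HFF1 only, and 19 to 24 for the unadjusted test. With the top 50000 peaks, 35 members (89.7%) were open in GM12878, 23 (59%) in HEK293T, 30 (76.9%) in HFF1 and 24 (61.5%) in K562, against 63.4%, 67%, 65% and 66.3% of all genes. Depth scaling gave 37 members in GM12878, 36 in HFF1, 23 in K562 and 23 in HEK293T, whose depth is the lowest.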
